A study of Mus musculus with 17 samples.

Results

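Gene expression of kidney macrophages was compared between mice with established lupus nephritis and mice that had not yet developed it. The cells had high surface F4/80, a macrophage marker, and were sorted by flow cytometry from kidneys of NZB/W mice, a hybrid strain that spontaneously develops a lupus-like disease. The comparison took the 7 arrays whose titles call the sample sick (nephritic) and the 6 arrays whose titles call it young (prenephritic), of 17 arrays in the series. It covered the 15780 probe sets with exactly 1 gene symbol among the 16539 on the array, so that each gene was measured by 1 probe set. Prenephritic mice were 8 to 16 weeks old. Nephritic mice were taken 2 to 6 weeks after proteinuria began and before terminal renal failure. The labels name no treatment and no sex for either group, and they do not give the age of the nephritic mice, so age and nephritis cannot be told apart. The other 4 arrays, from mice 3 to 4 weeks into complete remission after 1 dose of cyclophosphamide, 6 doses of CTLA4Ig and an antibody to CD154, entered the fit only to help estimate the spread of each gene. The labels do not state whether each sample is a separate animal. The p-values therefore reflect only how far these samples spread, which may be technical. In sorted pools such as these, fewer cells of a type and less RNA per cell cannot be told apart.

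Lupus nephritis follows the deposition of immune complexes in the kidney, and macrophages of the kidney tissue meet these complexes through Fc receptors. Macrophages take up debris and lipoproteins, digest them in lysosomes, recycle iron and heme, and signal to lymphocytes through chemokines and surface ligands. C-type lectins, SLAM, TREM and Siglec receptors, which are described below by family, bind sugars, lipids or partner receptors and either activate or restrain the cell.

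Values are log2 RMA expression units, so a difference of 1 is a 2-fold change. Differences are given as nephritic minus prenephritic mean ± standard error (SE), with two-sided p-values of limma's moderated test adjusted by the Benjamini-Hochberg method over all 15780 genes. At an adjusted p under 0.05, 1064 genes rose (6.74% of those tested) and 840 fell (5.32%), which together made 12.1%. Without prenephritic replicate 5 and nephritic replicate 6 together, a pair that earlier results of these data had set apart, 759 rose and 477 fell. Most changes were small. The median change was 1.41-fold among genes that rose and 1.39-fold among those that fell. Of the genes that rose, 151 changed by 2-fold to 4-fold and 38 by 4-fold or more, against 81 and 14 of those that fell. The median difference over all genes was −0.02. The share of genes called grew with the mean level, from 2.56% among the 3945 dimmest genes to 11.6%, 15.3% and 18.8% in the next 3 groups of that size. All 7 nephritic arrays lay above all 6 prenephritic arrays for 484 genes (3.07%) and below them for 254 genes (1.61%). A group mean under 4.99, the lower quartile of all values, is near the floor of the arrays, and differences that involve one are called lower bounds, because RMA compresses differences of dim genes.

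Correlations over all genes ran from 0.976 to 0.993 within the prenephritic group, from 0.972 to 0.994 within the nephritic group and from 0.963 to 0.990 between groups. To place each array without using it to choose genes, genes were called without it, and its mean over them was set on a scale where 0% is the prenephritic and 100% the nephritic mean of the other arrays. Over genes called higher, prenephritic arrays lay between −8.7% and 21.2% and nephritic arrays between 73.0% and 123.7%. Over genes called lower, prenephritic arrays lay between −12.0% and 36.1% and nephritic arrays between 48.4% and 117.1%. The groups did not overlap on either scale. Nephritic replicate 3 was the nephritic array closest to the prenephritic mean on both. It also had the lowest tubule score, −2.04, which is the mean centred value of 44 genes of kidney tubule cells. Among prenephritic arrays, replicate 6 lay closest to the nephritic mean of lower genes, at 36.1%, but furthest from that of higher genes, at −8.7%. This array had the highest tubule score, 0.72. With that score as a covariate, every gene that had risen or fallen kept its call, and the counts were 1362 higher and 1427 lower. Genes that fell varied somewhat more among nephritic arrays, with a median SD of 0.21 against 0.19 among prenephritic arrays, and 61.1% of them had the larger SD in the nephritic group. Over all genes that share was 46.5%.

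**Figure D1:**
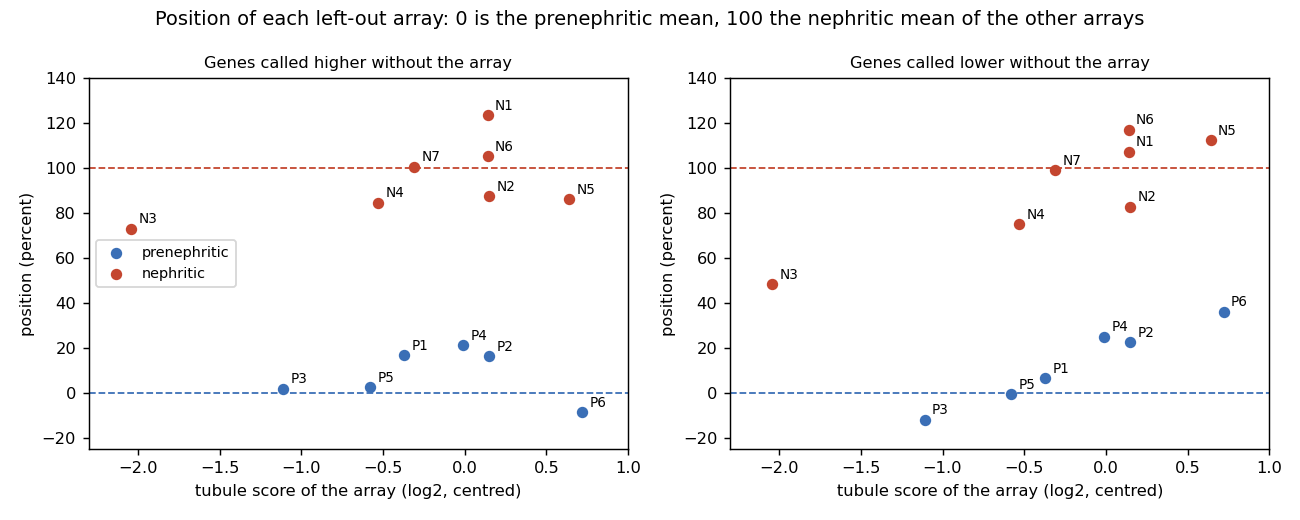
Position of each prenephritic (P1 to P6, blue) and nephritic (N1 to N7, red) array, in percent, on genes called higher (left) or lower (right) without that array, against its tubule score in centred log2 units. Dashed lines mark the group means of the other arrays at 0% and 100%. Nephritic arrays lie at 73.0% or above on the left and at 48.4% or above on the right, and N3, with the lowest tubule score, is the lowest of them on both.

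The sorted cells carried a macrophage profile in both groups. The 18 measured genes of macrophage identity had a median level of 13.08 in prenephritic and 13.16 in nephritic arrays, where the median of all genes was 7.64. Of the 18, 2 rose and 1 fell, together 16.7% against 12.1% of all genes. Mertk, a receptor for apoptotic cells, rose by 1.22 ± 0.21 (adjusted p = 0.0012), and Fcgr1, the high-affinity receptor for immunoglobulin G, by 0.63 ± 0.14 (adjusted p = 0.0070). Cd14, a receptor for lipopolysaccharide, fell by 0.35 ± 0.11 (adjusted p = 0.047), a call that was lost without 9 of the 13 arrays taken singly (adjusted p up to 0.10). Transcripts of kidney tubule cells were present in both groups. The mean of the 21 proximal tubule genes ran from 8.97 to 10.89 over prenephritic arrays and from 7.64 to 10.82 over nephritic arrays, and 0 of these genes passed by limma, with 0 at an unadjusted p under 0.05. Their median difference was −0.32, and 3 of the 21 were positive. Of 23 distal tubule and collecting duct genes 0 passed, and 2 were higher and 1 lower at an unadjusted p under 0.05. Without prenephritic replicate 6 or nephritic replicate 3, 1 of the 23 rose. Their median difference was 0.21, and 15 were positive. The tubule score pools both lists. With it as a covariate, 4 proximal genes were lower, and 5 distal genes were higher and 2 lower. The tubule score was −0.20 ± 0.63 (SD, n = 6) in prenephritic and −0.26 ± 0.87 (SD, n = 7) in nephritic arrays (exact two-sided permutation p = 0.91, adjusted p = 0.91 over 4 array measures). RNA integrity was read from control probes as the 3′ over 5′ log2 difference. For Gapdh it was 1.11 ± 0.16 in prenephritic and 1.01 ± 0.07 in nephritic arrays (SD, exact permutation p = 0.15, adjusted p = 0.62), and for actin 0.68 ± 0.16 and 0.61 ± 0.07 (SD, exact permutation p = 0.35, adjusted p = 0.70).

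Chemokine genes included some of the largest increases. Of 32 measured chemokine genes 5 rose and 2 fell, together 21.9% against 12.1% of all genes. Cxcl13, the chemokine of B cell follicles, had values of 7.62, 8.14 and 10.19 (lowest, median and highest) in prenephritic and 11.95, 12.42 and 13.01 in nephritic arrays. Ccl8, a ligand of monocyte and T cell receptors, had 9.12, 9.80 and 11.42 in prenephritic and 12.16, 12.66 and 12.96 in nephritic arrays. Ccl7, a monocyte attractant, had 7.45, 8.89 and 10.43 against 10.80, 11.58 and 11.99. None of these 3 genes had overlapping groups, and in each the nephritic arrays spanned a narrower range than the prenephritic arrays. The differences were 3.94 ± 0.43 for Cxcl13 (15.4-fold, adjusted p = 2.3e-05), 2.64 ± 0.32 for Ccl8 (adjusted p = 6.8e-05) and 2.50 ± 0.39 for Ccl7 (adjusted p = 0.00054). Ccl2, the main ligand of the monocyte receptor CCR2, rose by 1.21 ± 0.22, and Ccl9 by 0.58 ± 0.08. The count of 5 was found whichever array was left out, while the count of chemokine genes that fell was 0 without prenephritic replicate 2, 3 or 6, or without nephritic replicate 1, 2, 5, 6 or 7.

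**Figure D2:**
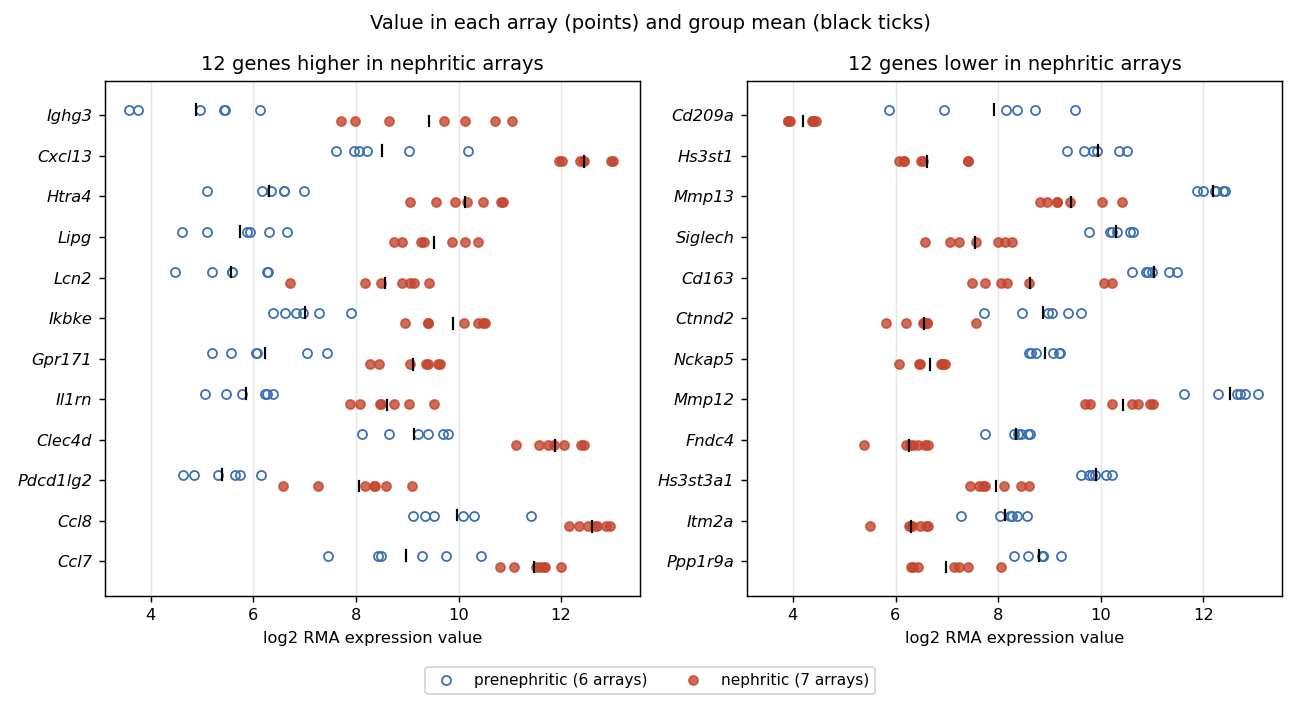
Log2 RMA value in each of 6 prenephritic arrays (open blue points) and 7 nephritic arrays (filled red points) for the 12 genes with the smallest p among the 20 largest increases (left) and decreases (right), with group means as black ticks. In each of the 24 genes the groups do not overlap, which their choice by size and p favours. Over all genes such separation held upward in 3.07% and downward in 1.61%.

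Immunoglobulin transcripts were among the largest increases. Ighg3, a heavy chain of immunoglobulin G, had values of 3.58, 5.19 and 6.12 in prenephritic and 7.71, 9.72 and 11.04 in nephritic arrays, with no overlap. It rose by 4.55 ± 0.69 (at least 23.4-fold, adjusted p = 0.00041), a lower bound, since its prenephritic mean was 4.88. Ighg1 rose by 4.73 ± 0.82 and the lambda constant gene Iglc1 by 3.47 ± 0.69, and Igkv6-15 (4.13 ± 0.67) and Ighg2b (2.70 ± 0.45) rose by at least these amounts. Igha, the heavy chain of immunoglobulin A, rose by 2.63 ± 0.69 (adjusted p = 0.019), but 2 prenephritic arrays, at 12.21 and 12.54, lay inside the nephritic range of 11.55 to 13.69. Ighm, the heavy chain of naive B cells, stood at −0.08, with means of 11.47 and 11.39. These genes share sequence, so the gene behind a signal can be uncertain. Of 19 markers of B cells and plasma cells, 7 rose and 2 fell, together 47.4% against 12.1% of all genes. Their mean ran from 6.76 to 7.55 over prenephritic and from 7.40 to 8.10 over nephritic arrays. Those that rose included the plasma cell genes Jchain (2.76 ± 0.52) and Mzb1 (1.95 ± 0.32). The B cell genes Pax5 (4.74 and 4.74), Blk (4.55 and 4.65) and Cr2 (4.41 and 4.53) lay near the floor in both groups. Tnfrsf17, the plasma cell survival receptor BCMA, fell by 1.73 ± 0.26. The part of B lineage cells in these signals was not tested.

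Activating and inhibitory surface receptors of the immunoglobulin superfamily changed in 24 of 36 measured genes, or 66.7% against 12.1% of all genes. Of the 24, 20 rose and 4 fell, and the median difference of the list was 0.46. In 15 of the 36 all nephritic arrays lay above all prenephritic arrays, which held for 3.07% of all genes. SLAM receptors, which bind each other on neighbouring leukocytes, rose in 6 of 9 members. Cd84 had values of 8.51, 8.56 and 9.20 in prenephritic and 9.79, 10.25 and 10.45 in nephritic arrays, a rise of 1.46 ± 0.15 (adjusted p = 1.4e-05) with no overlap. Slamf7 (1.81 ± 0.29), Cd244a (1.79 ± 0.27), Ly9 (1.51 ± 0.23) and Slamf6 (1.37 ± 0.20) rose too, and Cd48, the ligand of CD244, by 0.22 ± 0.05. Slamf1, Slamf8 and Slamf9 stood between 0.05 and 0.11 and did not pass. TREM receptors, several of which signal through the adaptor DAP12, rose in 4 of 6 members, by 0.90 ± 0.20 for the lipid sensor Trem2, 1.14 ± 0.33 for Trem1, 1.55 ± 0.41 for Treml4 and 1.82 ± 0.42 for Trem3. The call of Trem1 was lost without prenephritic replicate 3, 5 or 6, or without nephritic replicate 1 or 6 (adjusted p up to 0.082). Tyrobp, the gene of DAP12 itself, stood at −0.02 ± 0.04 with means of 13.39 and 13.37. Of 5 CD300 receptors 2 rose, the activating Cd300lb (1.68 ± 0.19) and the inhibitory Cd300lf (1.59 ± 0.18), and Cd300ld fell by 0.47 ± 0.14, a call lost without 7 of the 13 arrays taken singly (adjusted p up to 0.082). Also higher were the paired receptors Pilrb1 (1.13 ± 0.17) and Pilra (0.98 ± 0.14) and the Fc receptor-like gene Fcrls (1.94 ± 0.25).

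Sialic acid receptors went both ways. Siglech had values of 9.78, 10.26 and 10.63 in prenephritic and 6.57, 7.57 and 8.28 in nephritic arrays, with no overlap, and fell by 2.73 ± 0.25 (6.65-fold, adjusted p = 5.8e-06). It marks plasmacytoid dendritic cells and microglia. Of 9 plasmacytoid dendritic cell markers 1 rose and 2 fell, together 33.3% against 12.1% of all genes. Cox6a2 (0.32 ± 0.10) rose, and Siglech and Irf8 (−0.42 ± 0.13) fell. The calls of Cox6a2 and Irf8 were lost without 9 and 10 of the 13 arrays taken singly. Tcf4, the factor that defines those cells, had means of 11.38 and 11.37, while their receptor gene Ccr9 was near the floor at 4.71 and 4.41. The mean of the 9 ran from 8.70 to 8.86 in prenephritic and from 8.28 to 8.76 in nephritic arrays. The part of such cells in the fall of Siglech was not tested. Siglec1, the sialoadhesin of tissue macrophages, and Siglece, an inhibitory receptor, rose by 0.55 ± 0.13 and 0.46 ± 0.10. Of 6 Siglecs these 2 rose and 3 fell, Siglech, the inhibitory receptor Cd33 (−0.56 ± 0.16) and the B cell receptor Siglecg (−1.26 ± 0.38). The calls of Cd33 and Siglecg were lost without 7 and 9 of the 13 arrays taken singly, and the 3 that fell became 1 without prenephritic replicate 5 or without nephritic replicate 1, 5 or 6. Among all 36 receptors, the 4 that fell were 1 without prenephritic replicate 5, nephritic replicate 5 or nephritic replicate 6, and 2 without prenephritic replicate 1 or 3 or nephritic replicate 1, 2 or 3, whereas the count that rose stayed between 19 and 22 without any 1 array. The families in this and the next paragraphs were grouped, and their members named, after the values had been seen. The same holds for Pilrb1, Pilra, Cd274, Pdcd1, Icosl, Csf2rb, Csf2ra, Ch25h, Ahr, Apoc2, Apoc1, Apoe, Gpnmb, Lgals3, Hmox1 and Itgb2, and for most genes whose values are given though they did not pass.

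**Figure D3:**
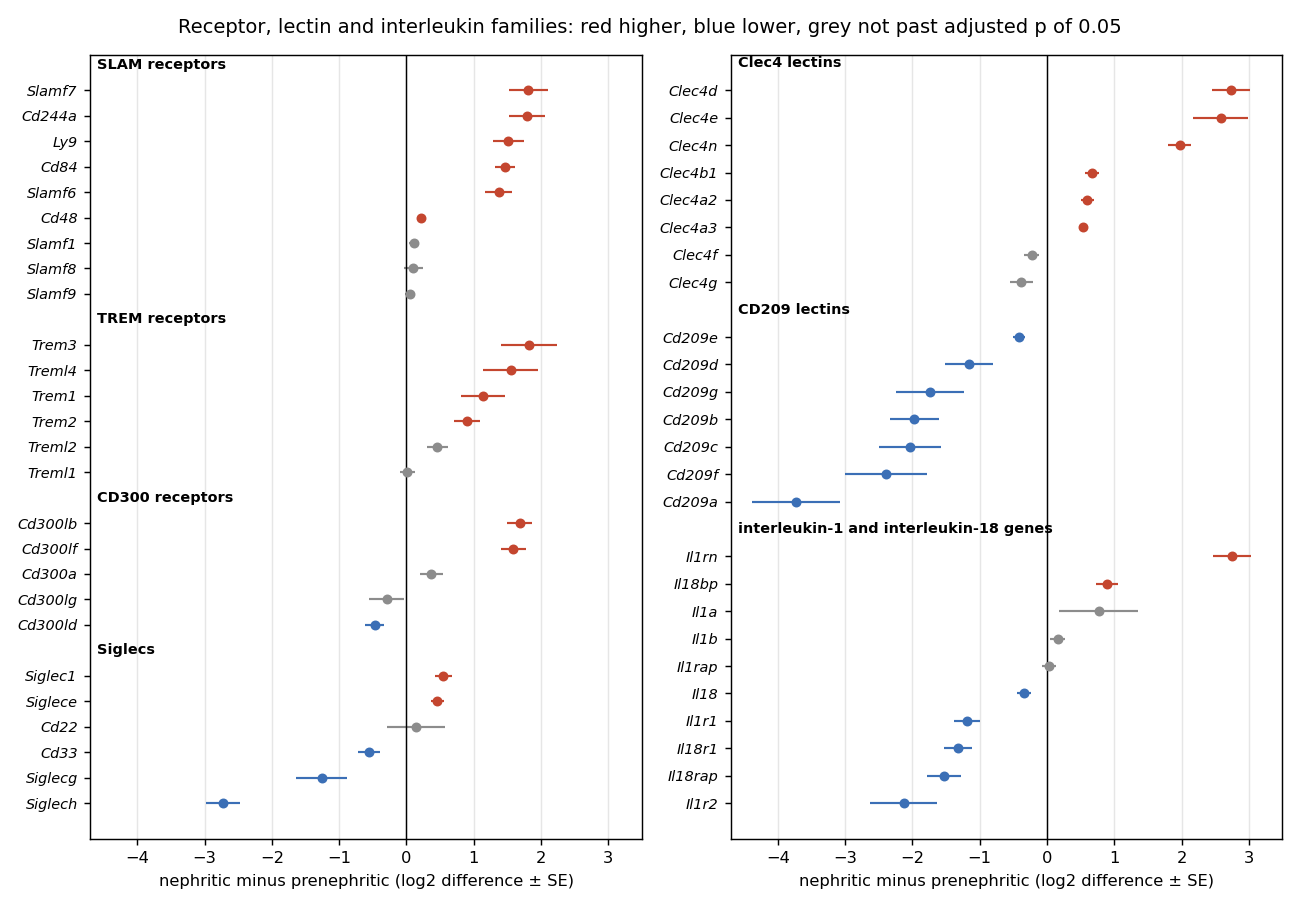
Difference between nephritic and prenephritic means (log2, points) with its SE (bars) for every measured member of 7 families of receptors, lectins and interleukin genes. Members with an adjusted p under 0.05 are red where higher and blue where lower, and the 7 CD209 lectins all lie to the left of 0 while 6 of 8 Clec4 lectins are red. Over all genes 6.74% were higher and 5.32% lower.

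C-type lectins, which recognise sugars and lipids of microbes and dying cells, differed by gene family. All 7 measured CD209 genes, which code for DC-SIGN-type receptors, fell, and 6 of 8 Clec4 genes rose while the other 2 did not pass. Over all genes 5.32% fell and 6.74% rose. Cd209a had values of 5.88, 8.26 and 9.50 in prenephritic and 3.91, 4.37 and 4.44 in nephritic arrays. It fell by 3.73 ± 0.65 (at least 13.3-fold, adjusted p = 0.0012), a lower bound, since every nephritic array lay below 4.99. Cd209b fell by 1.97 ± 0.36 and Cd209c fell by 2.03 ± 0.46, also lower bounds. Cd209f had values of 5.36, 7.60 and 9.30 against 4.35, 4.82 and 6.93, so that its groups overlapped, and fell by 2.39 ± 0.61 (adjusted p = 0.017). Between 5 and 7 of the 7 genes passed without any 1 array. These neighbouring genes are alike in sequence, and cross-hybridisation between their probe sets was not tested. Mgl2, a galactose-binding lectin, fell by 1.93 ± 0.35 (adjusted p = 0.0017).

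Clec4d and Clec4e, which pair on the surface to sense glycolipids, rose the most of the other family. Clec4d had values of 8.11, 9.30 and 9.80 in prenephritic and 11.12, 11.86 and 12.45 in nephritic arrays, and rose by 2.74 ± 0.28 (6.69-fold, adjusted p = 1.6e-05). Clec4e rose by 2.58 ± 0.41 and Clec4n, the gene of Dectin-2, by 1.97 ± 0.17 (adjusted p = 4.3e-06). Neither overlapped between groups. The inhibitory receptor genes Clec4a2 (0.60 ± 0.10) and Clec4a3 (0.54 ± 0.07) rose less. The lectin-like gene Klrb1b and its family member Clec2g rose by 2.32 ± 0.31 and 1.73 ± 0.19. Over the whole list, 8 of 35 lectin genes rose and 10 fell, together 51.4% against 12.1% of all genes. Mrc1, the mannose receptor, stood at −0.01.

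Ligands and receptors of T cell activation rose more often than they fell, in 10 of 24 genes against 2. Together these made 50% of the list, against 12.1% of all genes. Pdcd1lg2, the gene of the inhibitory ligand PD-L2, had values of 4.63, 5.48 and 6.14 in prenephritic and 6.57, 8.36 and 9.10 in nephritic arrays. Its groups did not overlap, and it rose by 2.67 ± 0.35 (6.38-fold, adjusted p = 0.00014). The gene of the other ligand of this receptor, Cd274, rose by 0.99 ± 0.21, and that of the receptor PD-1, Pdcd1, by at least 1.71 ± 0.27. Lag3, an inhibitory receptor of lymphocytes, rose by 1.60 ± 0.20, Nectin2 by 1.00 ± 0.14 and the activating receptor Cd40 by 1.19 ± 0.17. In contrast, Icosl fell by 0.68 ± 0.12 (adjusted p = 0.0011), and Cd80 stood at 0.25 without passing. Without prenephritic replicate 1 or 3 or nephritic replicate 1, 1 gene of the list fell in place of 2. Among 15 T cell markers 3 rose and 1 fell (26.7% together). Without any 1 of the same 3 arrays 1 rose, while 2 fell without nephritic replicate 2. Cd28, the costimulatory receptor of T cells, had values of 5.61, 6.52 and 7.36 in prenephritic and 4.44, 4.84 and 4.93 in nephritic arrays, with no overlap, and fell by at least 1.76 ± 0.25 (adjusted p = 0.00022). In the other direction, Cd3g rose by at least 1.47 ± 0.27 from 4.22, and Cd3e rose by 0.67 ± 0.18 (adjusted p = 0.024), a call lost without each of those 3 arrays, prenephritic replicates 1 and 3 and nephritic replicate 1 (adjusted p up to 0.056). The mean of the 15 ran from 5.30 to 5.49 in prenephritic and from 5.34 to 5.70 in nephritic arrays, and Zap70 (4.43 and 4.45) and Trat1 (3.27 and 3.32) were near the floor. The part of T cells in the rise of Lag3 and Pdcd1 was not tested.

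In the interleukin-1 and interleukin-18 systems, 2 of 10 genes rose, both of soluble inhibitors, and 5 fell, of which 4 code for receptors. Il1rn, the secreted antagonist of the interleukin-1 receptor, had values of 5.05, 6.00 and 6.39 in prenephritic and 7.88, 8.48 and 9.52 in nephritic arrays, a rise of 2.75 ± 0.28 (6.72-fold, adjusted p = 1.6e-05) with no overlap. Il18bp, which binds and blocks interleukin-18, rose by 0.89 ± 0.16. The signalling receptor gene Il1r1 had 7.39, 7.55 and 7.82 in prenephritic and 6.12, 6.30 and 6.88 in nephritic arrays, and fell by 1.19 ± 0.19 (adjusted p = 0.00057). Both chains of the interleukin-18 receptor fell too, by 1.32 ± 0.21 for Il18r1 and 1.53 ± 0.25 for Il18rap. The decoy receptor gene Il1r2 fell by 2.13 ± 0.50 (adjusted p = 0.010), with 1 nephritic array inside the prenephritic range. Il1b stood at 0.16 and Il1a at 0.77 without passing, and Il18 fell by 0.34 ± 0.10, a call lost without 9 of the 13 arrays taken singly (adjusted p up to 0.084). The 10 genes were grouped after the values had been seen and left out Il33, an alarmin of the same family, which rose by 1.48 ± 0.23. Over 43 interleukin and colony-stimulating factor genes 9 rose and 8 fell, together 39.5% against 12.1% of all genes. The 8 became 5 without prenephritic replicate 1, 3 or 5, or without nephritic replicate 6. The receptor chain genes Csf3r (0.66 ± 0.15) and Csf2rb (0.58 ± 0.16, not called without prenephritic replicate 4, where its adjusted p was 0.050) rose, and Csf2ra, which pairs with Csf2rb in the receptor for GM-CSF, fell by 0.33 ± 0.08.

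Receptors coupled to G proteins changed in 18 of 38 measured genes (47.4% against 12.1% of all genes), of which 11 rose and 7 fell. Gpr171, a receptor for a small peptide, had values of 5.20, 6.07 and 7.43 in prenephritic and 8.28, 9.36 and 9.64 in nephritic arrays, and rose by 2.88 ± 0.40 (7.37-fold, adjusted p = 0.00019). P2ry14, the receptor for UDP-glucose, had 8.27, 8.53 and 8.65 against 9.66, 10.02 and 10.32, a rise of 1.51 ± 0.14 (adjusted p = 5.8e-06). Neither gene overlapped between groups. Fpr2, a receptor for formyl peptides and lipid mediators, rose by 1.17 ± 0.13, and Anxa1, which codes for annexin A1, a ligand of that receptor, by 1.69 ± 0.24. Hrh1, the histamine H1 receptor, was lower in every nephritic array (5.27, 5.43 and 5.93) than in any prenephritic array (7.04, 7.15 and 7.36), and fell by 1.63 ± 0.21 (adjusted p = 0.00011). Gpr183, which guides cells along oxysterol gradients, fell by 1.27 ± 0.18. Ch25h, the enzyme that begins the synthesis of its ligand, fell by 0.73 ± 0.20, a call lost without prenephritic replicate 3 or 6, or without nephritic replicate 1, 6 or 7 (adjusted p up to 0.068).

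Of 34 eicosanoid genes, which make or sense lipid mediators, 3 rose and 2 fell, together 14.7% against 12.1% of all genes. Ptger2, a receptor for prostaglandin E2, had values of 5.62, 6.36 and 7.40 in prenephritic and 7.77, 8.30 and 8.81 in nephritic arrays and rose by 1.85 ± 0.27 (adjusted p = 0.00026). Hpgd, the enzyme that inactivates prostaglandins, had 12.09, 12.34 and 12.54 against 10.36, 10.81 and 11.65 and fell by 1.38 ± 0.19 (adjusted p = 0.00021). Neither overlapped between groups. Pla2g7, which degrades platelet-activating factor, rose by 1.52 ± 0.16, and Cysltr1, a leukotriene receptor, fell by 0.59 ± 0.13. The prostaglandin synthase gene Ptgs2 stood at 0.36 and Alox5, which starts leukotriene synthesis, at −0.56, and neither passed. The number of eicosanoid genes that fell was 4 without nephritic replicate 4.

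Of 30 NF-kB pathway genes 8 rose and 0 fell by limma, or 26.7% higher against 6.74% over all genes. At an unadjusted p under 0.05 the counts were 10 and 2. Without prenephritic replicate 6, 1 fell, and without prenephritic replicate 5 and nephritic replicate 6 together, 4 rose. Ikbke, the kinase IKK-epsilon, had values of 6.38, 6.90 and 7.91 in prenephritic and 8.95, 10.10 and 10.52 in nephritic arrays, and rose by 2.89 ± 0.29 (7.41-fold, adjusted p = 1.4e-05) with no overlap. Its relative Tbk1 stood at −0.20. Bcl3, a nuclear partner of NF-kB p50, rose by 1.32 ± 0.17, Relb by 0.68 ± 0.16 and the adaptor gene Myd88 by 0.57 ± 0.11. Irak3, an inhibitor of Toll-like receptor signalling, rose by 1.06 ± 0.19. The subunit genes Rela (−0.12) and Rel (0.16) did not pass. Among 63 transcription factors of macrophages 7 rose and 7 fell, together 22.2% against 12.1% of all genes. Nr1h3, the oxysterol receptor LXR-alpha, rose by 1.96 ± 0.28, Pparg by 1.08 ± 0.16, Batf by 1.07 ± 0.16 and Stat3 by 0.64 ± 0.09. Mef2c fell by 0.92 ± 0.14, and Ahr, a receptor for aromatic ligands, by 0.66 ± 0.12. Spi1 (0.20), Maf (0.00) and Cebpa (−0.01), which define the myeloid lineage, did not pass.

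Genes that act in mitosis rose together. Of 37 measured mitosis genes, 27 rose and 0 fell by limma, against 6.74% higher over all genes, and their median difference was 0.64. At an unadjusted p under 0.05 the counts were 32 and 0. Kif2c, a motor that corrects chromosome attachment, had values of 6.19, 6.27 and 6.52 in prenephritic and 6.83, 7.01 and 7.06 in nephritic arrays, with no overlap, and rose by 0.68 ± 0.06 (adjusted p = 5.8e-06). Ccnb2 (cyclin B2) rose by 1.08 ± 0.17, Cdca3 by 1.13 ± 0.20, Birc5 (survivin) by 1.01 ± 0.17 and Cdc20, which drives exit from metaphase, by 0.70 ± 0.12. The mean of the list overlapped between groups, from 7.18 to 8.17 in prenephritic and from 7.88 to 8.48 in nephritic arrays. The 27 became 17 without prenephritic replicate 3, or without nephritic replicate 5 or 7. With the replicate number as a block the count was lower still, as given in the last section. Of 39 replication and nucleotide genes 5 rose and 0 fell by limma, or 12.8% against 6.74% higher over all genes, with a median difference of 0.10 and a positive difference in 31, and at an unadjusted p under 0.05 the counts were 8 and 1. Tk1, thymidine kinase, had 7.73, 8.24 and 8.51 in prenephritic and 9.58, 9.83 and 10.24 in nephritic arrays and rose by 1.66 ± 0.15 (adjusted p = 5.7e-06). Rrm2, a ribonucleotide reductase subunit, rose by 0.67 ± 0.16 and the histone chaperone gene Chaf1b by 0.43 ± 0.09. None of the 6 measured subunits of the MCM helicase passed by limma, and 1 had an unadjusted p under 0.05. The difference between the lists was not tested.

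Proteasome genes shifted upward by a small amount. All 31 measured genes had a positive difference, against 7209 of 15780 over all genes, with a median of 0.23. By limma 16 passed, or 51.6% higher against 6.74% over all genes. At an unadjusted p under 0.05, 26 were higher. Of the subunits of the catalytic core 7 of 9 rose, and of those of the regulatory cap 9 of 17. Psmc5, an ATPase of the cap, had values of 9.58, 9.65 and 9.81 in prenephritic and 9.91, 10.13 and 10.35 in nephritic arrays, and rose by 0.43 ± 0.07 (1.35-fold, adjusted p = 0.00083) with no overlap. Psmd8 of the cap and Psma6 of the core rose by 0.40 ± 0.06 and 0.29 ± 0.05. None of 5 immunoproteasome subunits and activators passed by limma, 2 had an unadjusted p under 0.05, and their differences lay between 0.15 and 0.28. Without prenephritic replicate 3, 4 of the 9 core genes passed, and without prenephritic replicate 1, 1 of the 5 did. With a minimum change of 1.2-fold as the null hypothesis, no proteasome gene passed.

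**Figure D4:**
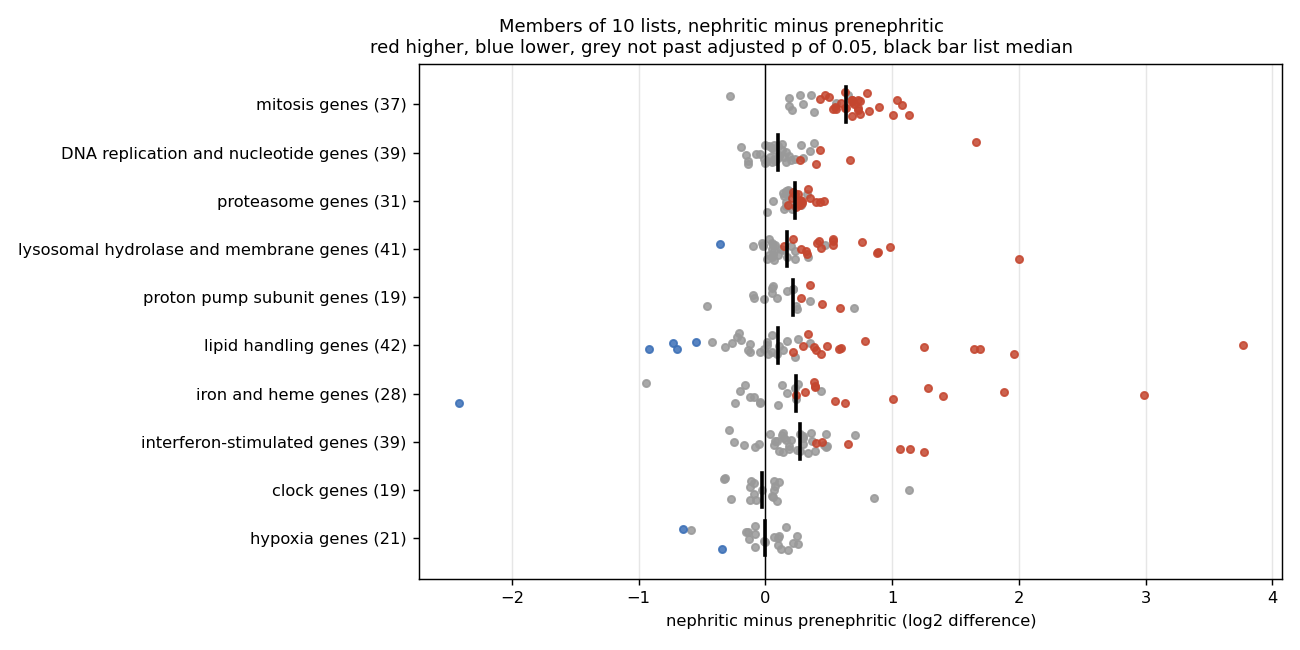
Difference between nephritic and prenephritic means (log2) for every measured member of 10 gene lists, with the number of members in brackets. Red points rose, blue points fell, grey points did not pass, and black bars are list medians, which lie at 0.64 for mitosis genes, 0.23 for proteasome genes and −0.03 for clock genes.

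Lysosomal genes rose in 16 of 41 members and fell in 1, together 41.5% against 12.1% of all genes. The median difference of the list was 0.17. Acp5, the tartrate-resistant acid phosphatase, had values of 10.38, 10.68 and 11.10 in prenephritic and 12.34, 12.76 and 13.15 in nephritic arrays, and rose by 2.00 ± 0.16 (4.01-fold, adjusted p = 3.2e-06). The protease cathepsin D, Ctsd, had 11.54, 11.77 and 11.85 against 12.44, 12.65 and 13.08, and rose by 0.98 ± 0.10. Neither gene overlapped between groups. Ctsl (cathepsin L) rose by 0.88 ± 0.15, the acid phosphatase gene Acp2 by 0.76 ± 0.10 and Ppt1, which removes fatty acids from proteins, by 0.53 ± 0.09. Gla, the alpha-galactosidase A of glycolipid breakdown, rose by 0.89 ± 0.18 and the legumain gene Lgmn by 0.53 ± 0.11, both named for the promoter match below. Cathepsins Ctss, Ctsz and Ctsh stood at 0.05 each and did not pass. The proton pump that acidifies lysosomes had 4 of 19 subunit genes higher (21.1% against 6.74% over all genes) and 0 lower by limma. Atp6v1b2 at 0.59 ± 0.09 and Atp6v0d1 at 0.45 ± 0.08 were among the 4. At an unadjusted p under 0.05, 8 pump genes were higher and 0 lower.

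The E-box letters TCACGTG, the core of the element bound by the TFEB family that drives lysosomal genes, were searched on both strands in RefSeq promoter windows of the mouse assembly GRCm38.p6, from 250 bases before to 50 after a gene's start. Windows were given for 12585 of the tested genes, of which 760 held the letters (6.04%). Of 36 lysosomal genes with a window 10 held them (27.8%), as did 4 of the 13 such genes that rose (30.8%). Among all genes that rose the share was 7.78%, and among those that fell 6.22%. The overlapping letters of both strands count as 1 hit per gene. The 250 bases before the start are printed for 3 of the 4 genes, 5′ to 3′ on the gene's strand, with matches in capitals, to show where the letters lie. For Ctsd they are chr7:142387828-142388077 on the minus strand, for Lgmn chr12:102439093-102439342 on the minus strand, the window with a match among the 2 given for that gene, and for Gla chrX:134601006-134601255 on the minus strand.
Ctsd: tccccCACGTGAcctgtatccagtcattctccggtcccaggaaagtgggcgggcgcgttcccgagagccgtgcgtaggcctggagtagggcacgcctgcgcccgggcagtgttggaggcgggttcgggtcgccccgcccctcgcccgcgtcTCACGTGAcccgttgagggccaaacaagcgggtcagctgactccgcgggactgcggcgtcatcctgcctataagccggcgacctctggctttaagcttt
Lgmn: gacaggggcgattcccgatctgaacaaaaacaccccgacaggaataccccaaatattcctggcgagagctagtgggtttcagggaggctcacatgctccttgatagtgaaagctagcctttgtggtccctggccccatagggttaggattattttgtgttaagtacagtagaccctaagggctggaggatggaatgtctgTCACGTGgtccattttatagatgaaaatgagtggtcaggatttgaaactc
Gla: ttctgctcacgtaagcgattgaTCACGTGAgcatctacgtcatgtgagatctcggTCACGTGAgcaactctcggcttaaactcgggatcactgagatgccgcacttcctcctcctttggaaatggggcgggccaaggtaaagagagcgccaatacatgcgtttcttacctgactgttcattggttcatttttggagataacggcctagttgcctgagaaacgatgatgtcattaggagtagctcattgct
A match is a description of the letters and not of binding.

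Genes of lipid uptake and export moved in both directions. Of 42 lipid handling genes 15 rose and 4 fell, together 45.2% against 12.1% of all genes. Lipg, the endothelial lipase, had values of 4.60, 5.91 and 6.65 in prenephritic and 8.74, 9.32 and 10.38 in nephritic arrays, with no overlap, and rose by 3.77 ± 0.34 (13.7-fold, adjusted p = 5.7e-06). Plin2, the coat protein of lipid droplets, had 11.49, 11.59 and 11.78 against 12.26, 12.41 and 12.63 and rose by 0.79 ± 0.09, and the lipoprotein lipase gene Lpl rose by 0.60 ± 0.07. Cd36, a receptor for fatty acids and oxidised lipoproteins, fell by 0.92 ± 0.11 and the fatty acid activating enzyme Acsl3 by 0.70 ± 0.09. Of 11 known targets of LXR 6 rose and 0 fell by limma, and at an unadjusted p under 0.05 the counts were 7 and 1. The apolipoprotein genes Apoc2 (1.65 ± 0.37), Apoc1 (1.25 ± 0.21) and Apoe (0.58 ± 0.17) were among the 6, whereas the cholesterol exporter gene Abca1 had 7.10, 7.59 and 7.94 in prenephritic and 7.01, 7.57 and 8.07 in nephritic arrays and stood at 0.05. The call of Apoe was lost without 7 of the 13 arrays taken singly (adjusted p up to 0.084). The targets were grouped after their values had been seen, and 1 of them fell without nephritic replicate 3.

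A list of genes of lipid-associated macrophages, the state described around lipid-rich tissue and plaques, rose in 14 of 28 members and fell in 2. Together these made 57.1% of the list, against 12.1% of all genes. Gpnmb rose by 1.78 ± 0.39 and Lgals3 (galectin-3) by 0.55 ± 0.12, beside Trem2, Ctsd, Plin2 and Lpl above and Lgals1 (0.28 ± 0.05). The mean of the list was higher in every nephritic array than in any prenephritic array. The count of 2 that fell became 0 or 1 without prenephritic replicate 1, 2, 3 or 6, or without nephritic replicate 1, 6 or 7. A list from homeostatic microglia, the resting macrophages of the brain, had 2 members higher and 5 lower of 20 (35% together). There Olfml3 rose by 1.71 ± 0.28 next to Fcrls, and the purine receptor gene P2ry13 fell by 0.74 ± 0.14 next to Siglech and Mef2c, while Cx3cr1 stood at −0.05. Osteoclast genes rose in 8 of 25 members and fell in 1 (36% together). Besides Acp5 they included the membrane protease gene Mmp14 (2.10 ± 0.18), Adam8 (1.24 ± 0.22) and the chloride exchanger gene Clcn7 (0.54 ± 0.08), whereas the osteoclast regulator gene Nfatc1 stood at −0.19 and Ctsk at 0.34. Lists share genes and are not separate evidence.

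Iron and heme genes rose in 12 of 28 members and fell in 1, together 46.4% against 12.1% of all genes. Without nephritic replicate 5, 2 fell. Lcn2, the lipocalin that binds bacterial siderophores, had values of 4.48, 5.59 and 6.29 in prenephritic and 6.72, 8.90 and 9.43 in nephritic arrays, and rose by 2.99 ± 0.39 (7.94-fold, adjusted p = 0.00014). It is also a neutrophil gene. Of 12 neutrophil markers Lcn2 and Csf3r rose and 0 fell by limma, or 16.7% higher against 6.74% over all genes. At an unadjusted p under 0.05 the counts were 3 and 0. S100a8 (7.45 and 7.29), S100a9 (8.39 and 8.33), Elane (3.97 and 3.91) and Cxcr2 (4.31 and 4.04) did not pass. The heme-binding protein gene Hebp1 rose by 1.40 ± 0.18, the ferroxidase gene Cp by 1.28 ± 0.21, heme oxygenase Hmox1 by 1.01 ± 0.19 and biliverdin reductase Blvra, which acts next to heme oxygenase, by 0.63 ± 0.09. Cd163, the receptor that takes up hemoglobin bound to haptoglobin, had 10.62, 10.97 and 11.48 in prenephritic and 7.49, 8.17 and 10.22 in nephritic arrays and fell by 2.42 ± 0.39 (5.36-fold, adjusted p = 0.00063), with no overlap although 2 nephritic arrays lay above 10. Hp, haptoglobin itself, rose by 1.88 ± 0.45 (adjusted p = 0.011). The iron exporter gene Slc40a1 stood at −0.94 without passing. Of 8 measured genes of the phagocyte oxidase, 3 rose (37.5%) and 0 fell by limma, with 4 and 0 at an unadjusted p under 0.05. The proton channel gene Hvcn1 led (1.64 ± 0.14, adjusted p = 4.4e-06), and the catalytic subunit gene Cybb stood at −0.14.

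Interferon-stimulated genes mostly had small positive differences. Of 39 measured, 34 were positive, against 7209 of 15780 over all genes. By limma 6 rose and 0 fell, or 15.4% higher against 6.74% over all genes. At an unadjusted p under 0.05 the counts were 16 and 2. The 5 of the 6 with the smallest p are named here, not those with the largest differences. Ifit1, which binds viral RNA, had values of 9.27, 9.40 and 9.67 in prenephritic and 10.01, 10.40 and 11.42 in nephritic arrays, with no overlap, and rose by 1.14 ± 0.21 (2.20-fold, adjusted p = 0.0017). Irf7, the regulator of interferon-alpha genes, rose by 1.06 ± 0.24, the RNA sensor Ifih1 by 0.45 ± 0.11, Zbp1 by 0.65 ± 0.15 and Ly6e by 0.40 ± 0.07. Mx1 (0.04), Cxcl9 (0.14) and Gbp2 (0.14) did not pass. The mean of the list overlapped between groups, and without nephritic replicate 2 the number that rose was 11. The core letters of the interferon-stimulated response element, GAAA and GAAA with any 2 bases between them, were found on either strand in the promoter windows of 446 of 12585 genes (3.54%) and of 15 of 27 genes of the list (55.6%), in 5.75% of all genes that rose and in 4.74% of those that fell. Of the 4 risen members with a window, 2 held them. The 250 bases before the start of Ifit1, chr19:34640639-34640888 on the plus strand of GRCm38.p6, are shown with the 2 matches in capitals, both in the reverse complement of those letters.
Ifit1: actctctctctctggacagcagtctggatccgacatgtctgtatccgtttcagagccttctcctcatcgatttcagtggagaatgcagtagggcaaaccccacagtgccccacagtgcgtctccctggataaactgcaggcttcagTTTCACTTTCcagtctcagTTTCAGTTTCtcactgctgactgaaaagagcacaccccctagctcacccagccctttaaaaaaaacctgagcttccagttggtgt

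Proteases and their inhibitors also went both ways. Htra4, a secreted serine protease, had values of 5.09, 6.48 and 6.98 in prenephritic and 9.05, 10.16 and 10.86 in nephritic arrays, and rose by 3.83 ± 0.42 (14.2-fold, adjusted p = 2.8e-05). Mmp13, a collagenase, had 11.88, 12.24 and 12.43 against 8.82, 9.15 and 10.42 and fell by 2.77 ± 0.23 (6.84-fold, adjusted p = 3.2e-06). Mmp12, the macrophage elastase, had 11.63, 12.69 and 13.07 against 9.69, 10.62 and 11.03 and fell by 2.09 ± 0.30 (adjusted p = 0.00028). None of these 3 overlapped between groups. Of 25 protease inhibitor genes 4 rose and 2 fell, together 24% against 12.1% of all genes. The 4 became 2 without prenephritic replicate 2 or 5, and the 2 became 1 without prenephritic replicate 1, 2, 3 or 6, or without nephritic replicate 1, 2 or 5. Timp1, an inhibitor of matrix metalloproteinases, rose by 1.82 ± 0.24 and the cathepsin inhibitor gene Cstb by 0.61 ± 0.07, while Serpinf1, which codes for an inhibitor of vessel growth, fell by 1.17 ± 0.19.

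Enzymes that modify heparan sulfate chains held some of the largest decreases. Hs3st1, which adds the sulfate that lets heparan bind antithrombin, had values of 9.35, 9.89 and 10.51 in prenephritic and 6.07, 6.50 and 7.41 in nephritic arrays, and fell by 3.34 ± 0.28 (10.1-fold, adjusted p = 3.8e-06). Its relative Hs3st3a1 had 9.62, 9.87 and 10.22 against 7.45, 7.74 and 8.61 and fell by 1.96 ± 0.18 (adjusted p = 7.3e-06). Neither overlapped between groups. The other two 3-O-sulfotransferase genes, Hs3st2 and Hs3st3b1, stood at 0.19 and −0.07. Hpse, the heparanase that cuts these chains, rose by 1.31 ± 0.22 (adjusted p = 0.0011), and Sdc1, a heparan sulfate proteoglycan that is also a plasma cell marker, by 0.95 ± 0.25. In all, 3 of 39 heparan and proteoglycan genes rose and 3 fell, shares near those of all genes.

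Adhesion genes rose in 10 of 40 members and fell in 2, together 30% against 12.1% of all genes. Without 9 of the 13 arrays taken singly, 1 fell. Itgam, the alpha chain of the integrin Mac-1 (CD11b), had values of 6.86, 7.58 and 7.82 in prenephritic and 9.22, 9.52 and 10.07 in nephritic arrays, with no overlap, and rose by 2.09 ± 0.17 (adjusted p = 3.2e-06). Its partner chain Itgb2 rose by 0.38 ± 0.08. Pecam1 rose by 1.84 ± 0.20 and Vcam1 by 1.39 ± 0.21, both adhesion molecules of endothelium as well as of macrophages. Of 18 endothelial markers Pecam1 alone (5.56%) passed by limma, also with any 1 array left out, and it alone had an unadjusted p under 0.05. The means were 4.68 and 4.68 for Cdh5 and 6.92 and 7.20 for Vwf. Of 18 fibroblast and mesangial markers 3 rose and 2 fell (27.8% together). The matrix protein gene Mgp rose by 1.47 ± 0.18, and Itga8, an integrin of mesangial cells, fell by 0.90 ± 0.15. Without nephritic replicate 2, 6 of the 18 rose, and without 10 of the 13 arrays taken singly 1 fell in place of 2. Guidance and growth factor genes rose in 3 of 42 members and fell in 5, together 19% against 12.1% of all genes. Vegfc, which drives lymphatic growth, fell by 1.41 ± 0.21 and Sema4a by 0.80 ± 0.10, while the co-receptor gene Nrp2 rose by 0.79 ± 0.10.

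Monocyte markers rose in 9 of 15 members and fell in 0 by limma, or 60% higher against 6.74% over all genes. At an unadjusted p under 0.05 these markers also counted 9 and 0. Their mean ran from 8.33 to 9.44 over prenephritic and from 9.16 to 10.21 over nephritic arrays. Clec4e and Hp, described above, are among them, as are the calcium-binding protein genes S100a4 (0.97 ± 0.23) and S100a6 (0.91 ± 0.19) and Ms4a4c (0.90 ± 0.17). Chil3 (−0.38) and F13a1 (−0.53) did not pass. The Ms4a family, membrane proteins that associate with immune receptors, rose in 5 of 13 members (38.5%) and fell in 0 by limma. At an unadjusted p under 0.05 the counts were 7 and 1. The rises were 0.84 ± 0.09 for Ms4a6d, 0.76 ± 0.11 for Ms4a7 and 1.26 ± 0.18 for Ms4a4b. All nephritic arrays lay above all prenephritic arrays in 5 of the 13, against 3.07% of all genes. Among 13 conventional dendritic cell markers 1 rose and 2 fell by limma (23.1% together, against 12.1% of all genes), with a median difference of −0.32. At an unadjusted p under 0.05, 1 was higher and 5 lower. Xcr1, the receptor of cross-presenting dendritic cells, rose by 2.37 ± 0.43 while Cd209a fell. Flt3, a growth factor receptor of dendritic cells, fell by 1.63 ± 0.50 (adjusted p = 0.042), a call lost without 10 of the 13 arrays taken singly (adjusted p up to 0.10). Of 14 mast cell and eosinophil markers 1 rose and 4 fell (35.7% together). The eotaxin receptor gene Ccr3 rose by at least 2.37 ± 0.44. Among the 4, Tpsb2, a mast cell tryptase, fell by 0.68 ± 0.10 and Rnase2a by 2.22 ± 0.65 (adjusted p = 0.034). The groups of Rnase2a overlapped, from 6.05 to 10.55 in prenephritic and from 5.64 to 7.73 in nephritic arrays. Of 11 NK cell markers 1 fell (9.09%) and 0 rose by limma. Klrd1, a chain of a lectin-like receptor, fell by 2.04 ± 0.49 (adjusted p = 0.011). At an unadjusted p under 0.05, 2 markers were higher, and without nephritic replicate 3, 1 rose. Of 9 podocyte markers and of 10 erythrocyte and platelet markers 0 rose, also at an unadjusted p under 0.05. In each list 1 fell (11.1% and 10%), calls lost without 4 and 7 of the 13 arrays taken singly. The part of these cell types in the changes was not tested.

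Several of the largest changes or of those with the smallest p belong to genes with less known roles in macrophages. Nckap5 had values of 8.61, 8.91 and 9.20 in prenephritic and 6.06, 6.88 and 6.97 in nephritic arrays and fell by 2.24 ± 0.17 (adjusted p = 3.2e-06). Ctnnd2, a catenin of neuronal junctions, had 7.72, 9.02 and 9.61 against 5.82, 6.55 and 7.56 and fell by 2.31 ± 0.35. Fndc4 had 7.74, 8.41 and 8.63 against 5.38, 6.34 and 6.64 and fell by 2.08 ± 0.23. All 3 were lower in every nephritic array than in any prenephritic array. The same held for the membrane protein gene Itm2a, with 7.27, 8.26 and 8.57 against 5.51, 6.32 and 6.63 (−1.83 ± 0.22), and for Ppp1r9a, a scaffold of actin and protein phosphatase 1, with 8.31, 8.86 and 9.22 against 6.30, 7.14 and 8.05 (−1.80 ± 0.24). Lsr, a receptor for lipoproteins and a protein of cell contacts, fell by 1.75 ± 0.17, Glcci1 by 1.76 ± 0.17 and Parvg, a parvin of leukocyte adhesion sites, by 1.43 ± 0.14. Upward, the potassium channel gene Kcnn4 rose by 1.98 ± 0.16, the matrix protein gene Spon1 by 1.96 ± 0.17 and Rhbdf2, needed to mature the protease that releases TNF, by 1.34 ± 0.11, with adjusted p of 3.2e-06, 3.9e-06 and 3.2e-06. Cfp, which codes for the complement protein properdin, rose by 1.38 ± 0.12.

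Of 19 clock genes 0 passed by limma, 1 higher and 1 lower at an unadjusted p under 0.05, and the smallest adjusted p was 0.093, for Nfil3 (1.13 ± 0.42). Without prenephritic replicate 2 or 4, 1 clock gene passed. Of 21 hypoxia genes 0 rose and 2 fell by limma (9.52%). The 2 were P4ha2 (−0.65 ± 0.17), a collagen-modifying enzyme, and Mxi1 (−0.34 ± 0.08), and 1 gene was higher at an unadjusted p under 0.05. Glucocorticoid-responsive genes went both ways, with 3 of 23 higher, or 5 without prenephritic replicate 4, and 4 lower, together 30.4% against 12.1% of all genes. The receptor gene itself, Nr3c1, fell by 0.42 ± 0.08. In the TGF-beta and BMP list 4 of 33 genes rose, among them the latent TGF-beta binding protein gene Ltbp3 (0.61 ± 0.09), and 2 fell (18.2% together), while Tgfb1 stood at 0.08. The 2 became 1 without prenephritic replicate 3 and 4 without nephritic replicate 3. Of 28 genes of the TNF superfamily 3 rose and 3 fell (21.4%), with Tnfsf14 (LIGHT) at 0.98 ± 0.17 and Tnfsf8 at −1.03 ± 0.15, and Tnf at −0.16 did not pass. Feedback inhibitors of signalling rose in 4 of 35 genes and fell in 3 (20% together). Socs3, the feedback inhibitor of STAT3 signalling, rose by 1.31 ± 0.34. The 4 became 2 without prenephritic replicate 2, 5 or 6, or without nephritic replicate 1 or 4. Of 32 carriers of amino acids and sugars 4 rose and 3 fell (21.9%), led by the glucose carrier gene Slc2a3, which fell by 1.43 ± 0.17. The 4 became 2 without prenephritic replicate 5 or 6, or without nephritic replicate 6, and the 3 became 1 without prenephritic replicate 3 or 5, or without nephritic replicate 2 or 7.

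**Figure D5:**
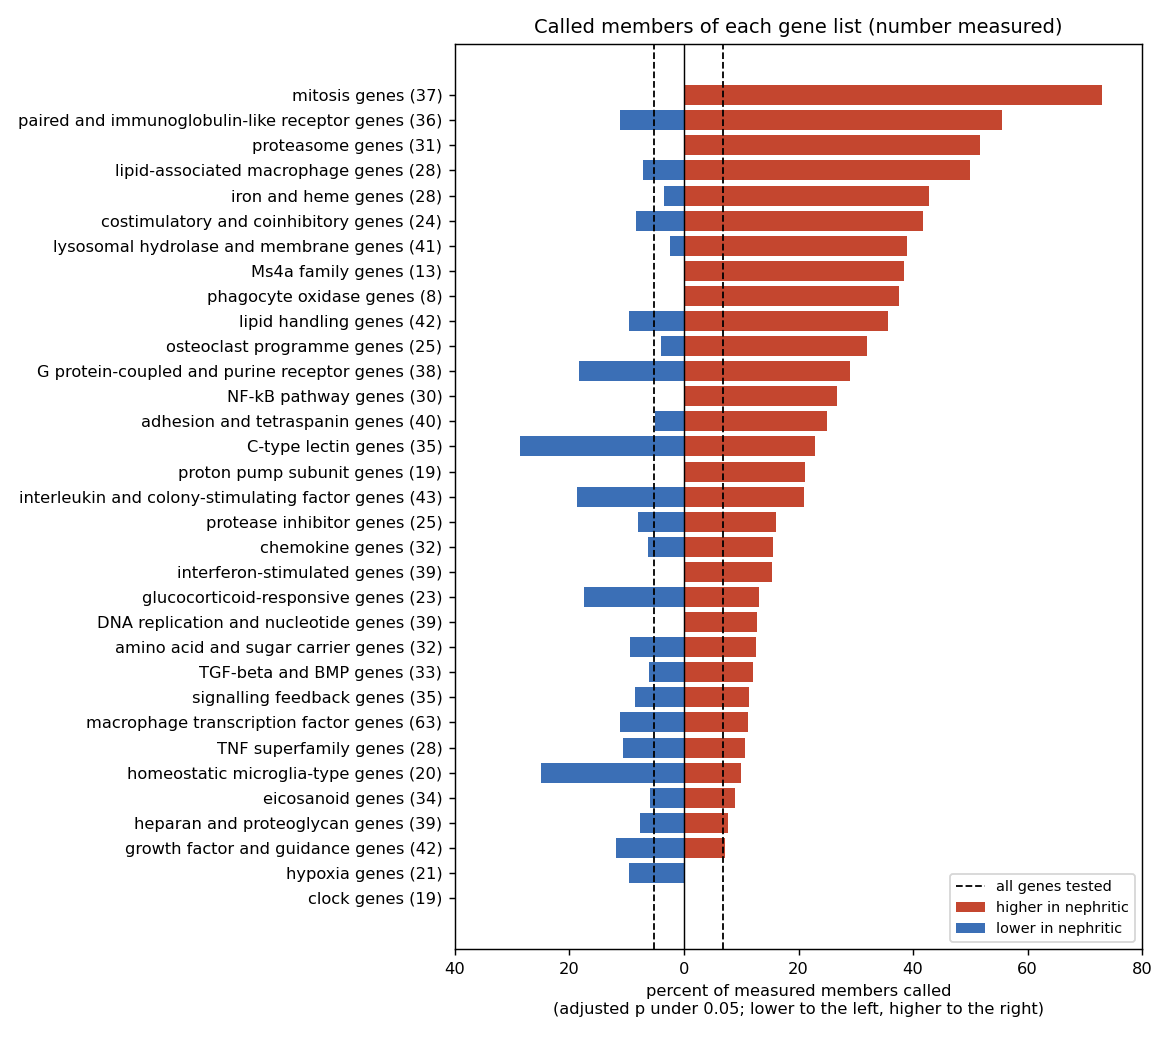
Percent of the measured members of 33 gene lists that were higher (red, to the right) or lower (blue, to the left) in nephritic arrays at an adjusted p under 0.05, with the number measured in brackets. Dashed lines mark the shares over all genes, 6.74% higher and 5.32% lower, and mitosis genes (27 of 37) reach furthest to the right while C-type lectin genes (10 of 35) reach furthest to the left.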

How the data were processed

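RNA of F4/80-high kidney cells sorted from NZB/W mice was purified with a PicoPure kit, turned into biotinylated cRNA and hybridised to Affymetrix arrays with 1 probe set per Entrez gene, per the labels' protocols. The deposited values are log2 expression values made by the authors with RMA, per the submitters' processing notes. Those notes give no version. RMA normalizes the distributions of all arrays to each other, so a shift common to all genes cannot be seen. Of 16539 probe sets, 64 controls and 695 with no gene symbol were left out, and 15780 with 1 symbol were tested.

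A model with a mean for each group was fitted to the 17 arrays with limma 3.58.1 in R 4.3.3 (lmFit and eBayes, 14 residual degrees of freedom), and p-values were adjusted by Benjamini-Hochberg over all 15780 genes. Single values per array were compared by exact two-sided permutation. The number of arrays limits the precision. The limma fit, and no other step, was tested on simulated data with independent normal noise.

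Genes are counted by 48 lists (33 programmes and 15 cell types), with 1267 of 1421 entries measured. The comparison, the lists and the tests were chosen with earlier results of these data known. Named genes were taken from the 20 largest changes in each direction, the 10 smallest p in each direction and up to 5 members of each list with the smallest p. Not every gene that met this rule is named. Values over arrays are given for 12 genes in each direction and for those a paragraph turns on, and other genes are said to be chosen later. Symbols come from the platform annotation, and 15752 were found by Entrez identifier in RefSeq. Promoters are RefSeq windows of GRCm38.p6. The alternatives were the arrays fitted, a replicate block, array scaling, a filter on dim genes, the variance model, array weights, a tubule covariate, every probe set and a minimum change. Replicate numbers in the titles gave correlations of deviations between −0.26 and 0.80 over same-numbered arrays and were not taken as pairs.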

Additional observations from a re-analysis of the deposited data

Results flagged for a closer look

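Of 92 groups of values examined over 46 measures, 4 held an array that stood apart from the rest of its group by Dixon's test, which chance alone gives in about 1 of 20 groups. For Fndc4, prenephritic replicate 6 had 7.74 where the next lowest array had 8.31, and nephritic replicate 5 had 5.38 where the next lowest had 6.21. For Itm2a, nephritic replicate 6 had 5.51 with the next lowest at 6.27. For Ctsd, prenephritic replicate 5 had 11.54 with the next lowest at 11.74. In all 3 genes the groups still did not overlap.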

How the results depend on the processing

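None of the 194 named genes that passed, which leave out Rnase2a, changed sign under any of 24 settings, of which 13 left out 1 array each. The balance of all calls did turn with the tubule covariate, to 1362 higher and 1427 lower genes (48.8% higher against 55.9%). Balances of lists turned too, of which 3 are given as examples. The glucocorticoid list had 5 higher and 4 lower without prenephritic replicate 4. C-type lectins had 8 higher and 7 lower without prenephritic replicate 5 and nephritic replicate 6 together, and 7 and 4 with a minimum change of 1.2-fold. Signalling feedback genes had 1 higher and 3 lower without those 2 arrays, and 4 and 5 with the tubule covariate. Leaving out 1 array gave 870 to 1048 higher and 569 to 1009 lower genes, 172 to 218 higher and 86 to 105 lower by at least 2-fold, and 12 to 16 lysosomal, 17 to 30 mitosis, 19 to 22 immunoglobulin-like receptor and 12 to 18 proteasome genes higher, with 7 to 10 C-type lectins lower. Lower genes numbered 530 with array medians subtracted (63.5% of calls higher) and 477 without prenephritic replicate 5 and nephritic replicate 6 together, which also left 17 mitosis genes; the cause was not tested. A minimum change of 1.2-fold, a stricter null hypothesis, left 235 higher and 117 lower genes (66.8% higher), 4 lysosomal, 5 mitosis, 13 receptor and 0 proteasome genes higher and 4 lectins lower. With the replicate number as a block, 945 genes were higher and 755 lower, and 13 mitosis genes were higher. The numbers were not taken as pairs, and whether same-numbered arrays belong together is not known. Deviations from the group means correlated at 0.80 between the nephritic and prenephritic arrays of replicate 3, and at −0.26 to 0.22 for the other numbers. Of those 194 genes, 136 kept their call in every setting, and 181 passed without any 1 array. Dim genes, near the floor, have differences that are lower bounds. Without prenephritic replicate 5 and nephritic replicate 6 together, 17 of the 194 kept their direction but no longer passed limma's threshold. Cd209f, Ifih1, Klrd1, Relb, S100a4 and Socs3 were among them, with adjusted p from 0.052 for Klrd1 to 0.089 for Socs3. The highest adjusted p of the 17 was 0.15, for Cox6a2.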
